A study of Rattus norvegicus with 4 samples.

Results

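Genes that mark astrocytes were measured in cultures of rat oligodendrocyte precursor cells (OPCs) after silencing of the G protein-coupled receptor GPR17. The genes were Gfap, Aqp4, Slc4a4, Slc1a2, Slc1a3, Gja1, Aldh1l1, Fgfr3 and Sox9, chosen by name for their place in the astrocyte program and found on the arrays through the transcript accession of each probe. These 9 genes, of 16568 genes that could be named, are represented by 14 probes. The OPCs came from pooled cerebral cortices of Sprague-Dawley rats at postnatal day 2, grew for 3 days with bFGF and PDGF, and were transfected when moved to differentiating medium with the thyroid hormone T3. The siGPR17 group received 50 nM of a siRNA pool against the rat Gpr17 transcript and the siNEG group a non-targeting RNA pool, both with Lipofectamine RNAiMax, with 2 samples in each group. Total RNA was taken 48 h later, at day in differentiation 2, and 1 sample was hybridized on each of 4 one-color Agilent arrays. Both groups were wild-type primary cells, and a culture of purified OPCs can hold other cells of the cortex, so that RNA from a few astrocytes and a low transcript level in OPCs cannot be told apart on these arrays, nor can fewer cells and less RNA per cell.

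Astrocytes and oligodendrocytes arise from related progenitors of the neural tube and the perinatal cortex. In the mature brain astrocytes take up glutamate at synapses, buffer water, potassium and bicarbonate around vessels, and are joined by gap junctions into a network. Glial fibrillary acidic protein, the product of Gfap, fills their processes. Several of these genes are not exclusive to astrocytes. Sox9, Fgfr3 and Slc1a3 are also active in neural progenitors and in cells of the early oligodendrocyte lineage, whereas Gfap, Aqp4 and Aldh1l1 are commonly used to tell astrocytes from OPCs.

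Signals are the background-corrected intensities, scaled on the log2 scale to the 75th percentile of each array and printed on a linear scale in intensity units. A spot is called well above background where the scanner software judged its signal to stand clear of the local background. Each gene had at least 1 probe well above background on all 4 arrays, and 12 of the 14 probes were so on every array. A probe was tested with limma (two-sided, adjusted by Benjamini-Hochberg over 28016 probes) where the software made that call on 2 or more of the 4 arrays, which left 13 probes of the 9 genes. Where several probes of a gene were tested, the brightest stands for it. Signals of different probes depend on the probe sequence, so no gene's signal is set against that of another. Following the study's methods, a probe was past the thresholds when the groups differed by a factor of 1.5 or more with an adjusted p under 0.07, and 0.00357% of all tested probes were. The number of arrays limits the precision, and an exact permutation test of 2 against 2 arrays cannot give a two-sided p under 0.333. Of 8 markers of OPCs, 8 were well above background on all arrays, as were 7 of 8 markers of mature oligodendrocytes. Gpr17, the targeted gene, had signals of 1107 and 1113 in siNEG and of 639 and 652 in siGPR17 OPCs, which differ by -0.78 on the log2 scale (standard error 0.085, limma adjusted p = 0.209). All arrays lay on 1 slide, with siNEG in one column and siGPR17 in another, so column and treatment cannot be told apart.

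Of the 9 astrocyte genes, 5 were lower on each siGPR17 array than on either siNEG array: Aqp4, Gfap, Slc1a3, Slc4a4 and Slc1a2. Over all 11656 tested genes, 25.3% were separated in this direction. In the opposite direction 1 gene, Fgfr3, was separated, against 28.1% of all tested genes. The arrays of the groups overlapped for Gja1, Aldh1l1 and Sox9. By sign alone 5 of the 9 were lower and 4 higher, beside 48% and 52% of all tested genes. The median log2 fold change of the 9 genes was -0.22, beside 0.0099 over all tested genes. No astrocyte gene was past the thresholds in limma or in the methods' t-test (0 of 9 in each, with 0% of all tested genes past them in limma), and 4 of the 9, all lower, reached an unadjusted p under 0.05 in limma, beside 8.73% of all tested genes that were lower with such a p. None of the 9 was higher with such a p, beside 7.43% of all tested genes. In a limma fit with a variance trend and robust estimates, Aqp4 and Gfap passed, 2 of 9 beside 1.58% of all tested genes, and with normexp background correction Aqp4 passed, 1 of 9 beside 0.961%.

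**Figure D1:**
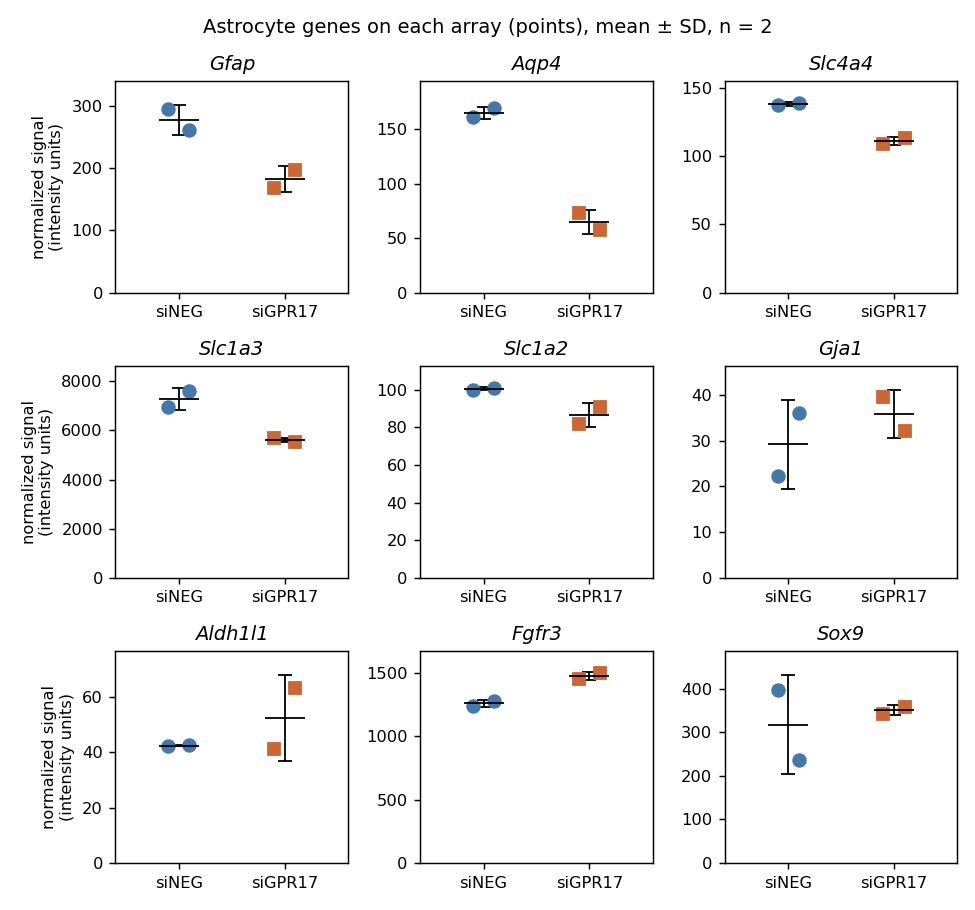
Normalized signal (y axis, intensity units, from 0) of the brightest tested probe of each astrocyte gene on the 2 siNEG arrays (circles) and the 2 siGPR17 arrays (squares), with the mean and the SD as bars (n = 2). The siGPR17 arrays lie below the siNEG arrays for Aqp4, Gfap, Slc1a3, Slc4a4 and Slc1a2, above them for Fgfr3, and overlap with them for Gja1, Aldh1l1 and Sox9.

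The stretch around the transcription start is shown for Gfap and Slc1a3, which were lower with separated arrays, and for Fgfr3, which was higher, so that a reader can see the sequence next to the direction of each gene. These windows are taken from RefSeq on the assembly GRCr8, 250 bases before to 50 bases after the start, written 5′ to 3′ on the strand of the gene. They are chr10:88361612-88361911 for Gfap, chr2:59557759-59558058 for Slc1a3 (the first of 3 listed starts) and chr14:81227160-81227459 for Fgfr3, all on the minus strand. Capitals mark matches to TTGGC on either strand, the core of the site bound by nuclear factor I proteins.
Gfap: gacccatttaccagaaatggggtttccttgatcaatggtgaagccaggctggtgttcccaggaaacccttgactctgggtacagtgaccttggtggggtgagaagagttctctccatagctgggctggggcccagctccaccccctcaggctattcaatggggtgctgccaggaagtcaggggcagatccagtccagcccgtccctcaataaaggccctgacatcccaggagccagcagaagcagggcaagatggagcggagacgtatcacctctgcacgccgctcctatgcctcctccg
Slc1a3: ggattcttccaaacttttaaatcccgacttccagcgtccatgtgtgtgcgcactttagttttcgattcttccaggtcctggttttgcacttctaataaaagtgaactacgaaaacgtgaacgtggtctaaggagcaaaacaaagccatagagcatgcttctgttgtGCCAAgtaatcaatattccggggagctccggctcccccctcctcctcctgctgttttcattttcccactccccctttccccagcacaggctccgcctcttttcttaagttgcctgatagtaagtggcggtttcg
Fgfr3: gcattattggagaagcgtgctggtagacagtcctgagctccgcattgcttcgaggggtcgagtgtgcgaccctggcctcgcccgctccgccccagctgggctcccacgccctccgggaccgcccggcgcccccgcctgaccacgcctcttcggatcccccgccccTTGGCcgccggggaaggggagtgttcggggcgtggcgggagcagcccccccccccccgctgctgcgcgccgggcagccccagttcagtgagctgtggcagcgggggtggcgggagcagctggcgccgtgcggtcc
The core TTGGC was found 0 times in the Gfap window and 1 time each in those of Slc1a3 and Fgfr3. Of 8 astrocyte genes with a window in the table, 4 held it in any of their windows (Fgfr3, Slc1a2, Slc1a3 and Slc4a4). Counted by window, 6 of the 12 windows of these 8 genes held it, and 45.9% of all 33365 different windows of this length did. A SOX core, ACAAT on either strand, was in 0 of the 8 genes' windows and in 33.6% of all windows, and a STAT site, TTCNNNGAA, which reads the same on both strands, in 0 of 8 and in 8.88%. The letters sought do not overlap with each other in these windows, and the matches are a description of these windows only.

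Aqp4, the water channel that astrocytes place at their end-feet on blood vessels, differed most among the 9 genes. It was read by 1 probe, printed as 1 spot on each array, so no other probe could be compared with it. Its signals were 161 and 169 on the siNEG arrays and 72.9 and 57.1 on the siGPR17 arrays. Both siGPR17 arrays read far below either siNEG array, and the mean went from 165 ± 5.63 (SD, n = 2) to 65.0 ± 11.2 (SD, n = 2). The log2 difference was -1.35 (standard error 0.15, 95% interval -1.76 to -0.94, limma adjusted p = 0.209), a signal at 39.2% of that in siNEG OPCs. The size depended on the background correction, since normexp with an offset gave -0.84 (adjusted p = 0.0173 from limma). When any 1 array was left out, the log2 fold change lay between -1.53 and -1.18.

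Gfap encodes the intermediate filament protein that is the classical stain for astrocytes. This gene too was read by 1 probe, printed as 1 spot on each array. Its signals were 295 and 261 in siNEG and 168 and 198 in siGPR17 OPCs. The groups did not overlap, and each mean lay farther from the other than the spread within a group, with 278 ± 24.1 (SD, n = 2) against 183 ± 21.5 (SD, n = 2). The log2 fold change was -0.61 (standard error 0.13, 95% interval -0.97 to -0.24, limma adjusted p = 0.216), just past a fold of 1.5 at 1.52. It fell short of a fold of 1.5 in several alternatives. Among them it was -0.52 with normexp, -0.49 without siGPR17 replicate 1 and -0.41 with spike-in scaling. Over all tested genes 2.65% were lower by a fold of 1.5 or more, and Aqp4 and Gfap were the 2 of the 9 that were. None of the 9 was higher by that much, beside 2.43% of all tested genes.

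The other transporters among the 9 genes differed less. Slc1a3 encodes GLAST, a sodium-dependent glutamate transporter of astrocytes and of glial progenitors. Its brightest probe had signals of 6967 and 7592 in siNEG and of 5672 and 5545 in siGPR17 OPCs. The groups were separate, and the log2 fold change was -0.37 (standard error 0.095, 95% interval -0.63 to -0.11, adjusted p = 0.234 from limma). This probe is printed as 10 spots on each array, which shows the spread within an array. The log2 signals of its spots had a SD of 0.031 to 0.042 on 3 of the arrays and of 0.12 on siNEG replicate 2, where the lowest spot read 6093 and the highest 8078. The highest spot of either siGPR17 array, 5862, was below the lowest spot of either siNEG array. The spots share the sample and the scaling of their array, so they do not add to the 2 samples in each group. A dimmer probe of Slc1a3 had signals of 522 and 541 in siNEG and of 456 and 466 in siGPR17 OPCs, also separated, at -0.21 on the log2 scale (standard error 0.086). With spike-in scaling the brightest probe gave -0.18.

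Slc1a2 encodes GLT-1, the glutamate transporter that carries most glutamate uptake in the mature forebrain. Its probe had signals of 100.0 and 101 in siNEG and of 81.9 and 90.9 in siGPR17 OPCs. The groups did not overlap, but the interval of the log2 fold change of -0.22 (standard error 0.099, limma adjusted p = 0.356) ran from -0.49 to 0.051 and included 0. On siGPR17 replicate 2 the 2 spots of this probe read 82.4 and 100.3, so that the higher of them lay within the range of the siNEG spots, 97.2 to 105. The log2 fold change was -0.14 without siGPR17 replicate 1, -0.057 with normexp and -0.026 with spike-in scaling.

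Slc4a4 encodes the electrogenic sodium bicarbonate cotransporter NBCe1, by which astrocytes take up bicarbonate. Its brighter probe had signals of 137 and 139 in siNEG and of 109 and 113 in siGPR17 OPCs. The replicates of each group lay close together and the groups apart, with a log2 fold change of -0.31 (standard error 0.086, 95% interval -0.55 to -0.078, adjusted p = 0.244 from limma). The dimmer probe of the gene did not follow it. It was well above background on 1 of 2 arrays in each group, with signals of 18.0 and 8.60 in siNEG and of 16.99 and 19.1 in siGPR17 OPCs, and its log2 fold change of 0.53 had a standard error of 0.38. The mean of both probes was 0.11, so that the direction of Slc4a4 rests on the brighter probe, which gave -0.19 with normexp and -0.12 with spike-in scaling.

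Fgfr3, a receptor for fibroblast growth factors found on astrocytes and on their progenitors, was the 1 gene that was higher with separated arrays. Its signals were 1240.0 and 1278 in siNEG and 1452 and 1496 in siGPR17 OPCs. The replicates of each group lay close together, and the log2 fold change was 0.23 (standard error 0.087, 95% interval -0.0097 to 0.46, adjusted p = 0.310 from limma). It was 0.14 with normexp and 0.42 with spike-in scaling. By the brightest probes, the intervals of Fgfr3 and of Aqp4, Gfap, Slc1a3 or Slc4a4 did not overlap. Those of the dimmer Slc1a3 probe (-0.44 to 0.030) and the dimmer Slc4a4 probe (-0.52 to 1.59) overlapped with that of Fgfr3. The scaling of an array moves all of these genes together and so does not alter their distances from each other.

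For the remaining genes the replicates of a group differed by more than the groups did. Gja1, which encodes connexin 43 of astrocyte gap junctions, had signals of 22.3 and 36.1 in siNEG and of 39.5 and 32.2 in siGPR17 OPCs. The siNEG replicates stood farther apart than the group means, and the log2 fold change of 0.33 had an interval from -0.42 to 1.08 and was -0.016 without siNEG replicate 1. Aldh1l1, an enzyme of folate metabolism and the marker most often used for astrocytes in general, had signals of 42.3 and 42.6 in siNEG and of 41.3 and 63.4 in siGPR17 OPCs. Only siGPR17 replicate 2 stood out, so the log2 fold change of 0.27 (interval -0.36 to 0.90) was -0.041 without it and 0.58 without siGPR17 replicate 1. Sox9, a transcription factor that starts gliogenesis and stays on in astrocytes, had signals of 398 and 237 in siNEG and of 343 and 359 in siGPR17 OPCs by its brightest probe. The siGPR17 values fell between the siNEG values, and the log2 fold change of 0.19 (interval -0.55 to 0.94) turned to -0.18 when siNEG replicate 2 was left out and grew to 0.56 when siNEG replicate 1 was. Among the dimmer Sox9 probes, one gave -0.065 (interval -0.32 to 0.19) and another 0.085 (interval -0.53 to 0.70), and the last, which stood well above background on no array, was not tested. The intervals of the brightest probes leave room for signals higher by more than a fold of 1.5 for all 3 genes. Adjusted p-values of the 3 genes ranged from 0.576 to 0.749 in limma.

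**Figure D2:**
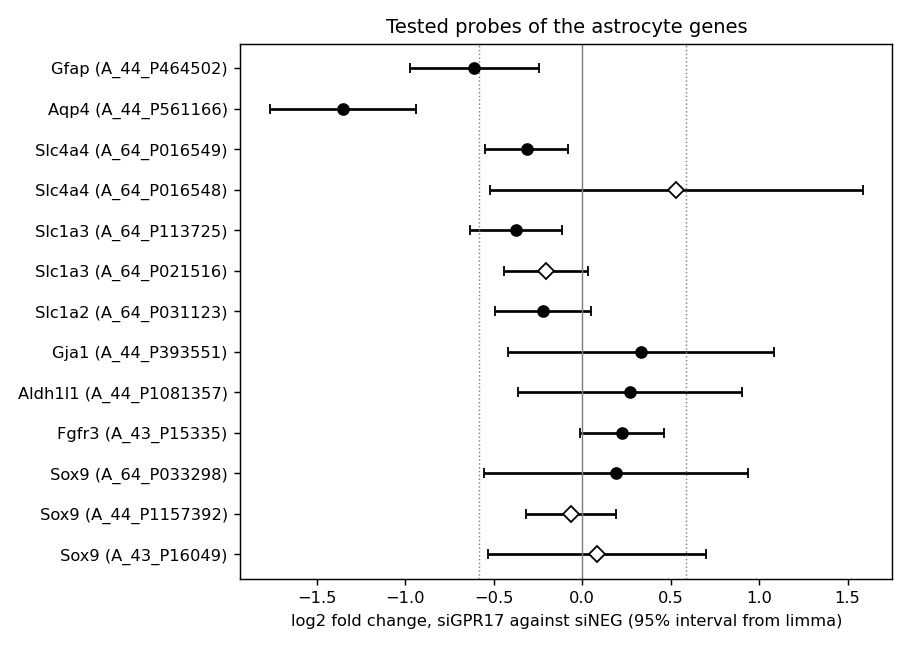
Log2 fold change of siGPR17 against siNEG OPCs (x axis) with the 95% interval from limma for the 13 tested probes of the 9 genes (y axis). Filled circles are the brightest probe of a gene and open diamonds its dimmer probes, and dotted lines mark a fold of 1.5. Intervals of the brightest probes of Aqp4, Gfap, Slc1a3 and Slc4a4 lie below 0, and the dimmer probe of Slc4a4 points the other way with an interval from -0.52 to 1.59.

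Across settings the direction was stable for 5 of the genes. Aqp4, Gfap, Slc1a3 and Slc1a2 were lower, and Fgfr3 higher, in all 15 alternatives of scaling, background correction, filter, test, block and left-out array. Slc4a4 was lower in 14 of them. The other filters, the floor, the other tests and the block left these fold changes as they were, so the direction could not turn there. Only the scalings, normexp, the left-out arrays and, for genes with several probes, the mean of the probes could turn it. The largest shift of all genes came with scaling on 8 spike-in control probes, which raised the median log2 fold change of all tested genes by 0.19 and left 80.6% of them higher, in place of 52%. The log2 level of these controls against the 75th percentile, centred over the arrays, was -0.045 and 0.24 in siNEG and -0.055 and -0.14 in siGPR17. The siNEG replicate 2 array stood farthest off, while replicate 1 of each group lay close together. Under this scaling 5 of the 9 astrocyte genes were still lower, with a median of -0.026. Aqp4, Gfap and Slc1a3 were separated in that direction, 3 of 9 beside 892 of all 11656 tested genes. Fgfr3 and Gja1 were separated in the other, 2 of 9 beside 6273 of all tested genes. Relative to the median of all genes, the order of the 9 genes did not depend on this scaling.

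**Figure D3:**
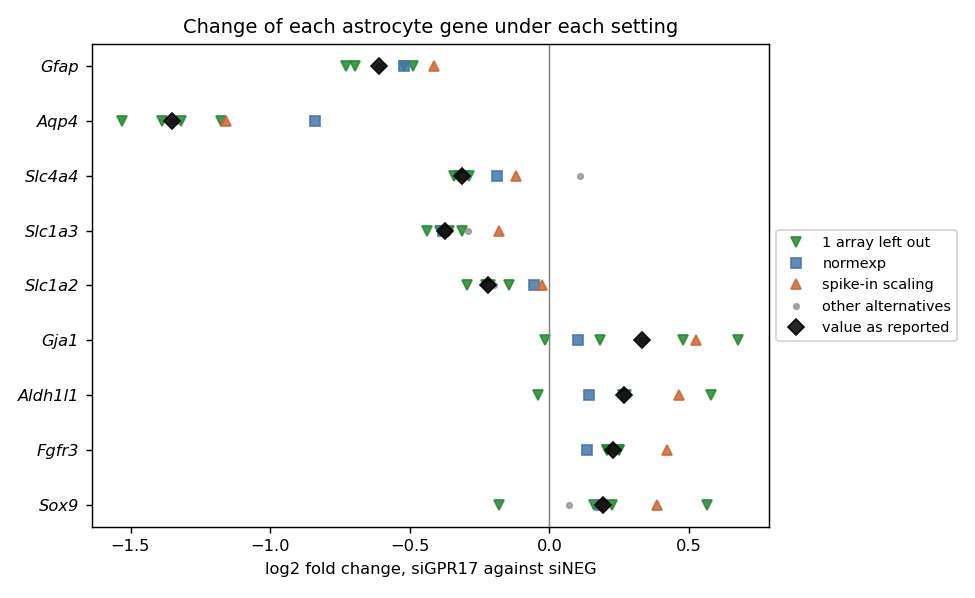
Log2 fold change of siGPR17 against siNEG OPCs (x axis) of each astrocyte gene (y axis) as reported (diamonds) and under each alternative, with 1 array left out as downward triangles, normexp as squares and spike-in scaling as upward triangles. Aqp4 ranges from -1.53 to -0.84 and Gfap from -0.73 to -0.41, while Gja1, Aldh1l1 and Sox9 lie on both sides of 0 when 1 array is left out.

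A wider list of 34 astrocyte genes, which shares no gene with the 9, was read in the same fit. A probe could be named for 33 of them and 26 were tested. The other 7, Kcnj16, Slco1c1, Slc14a1, Gjb6, Cbs, Etnppl and Chrdl1, were not well above background on any array, among them the gene of connexin 30 (Gjb6) and that of an inward rectifier potassium channel subunit (Kcnj16). Of the 26, 20 were lower and 6 higher after silencing (median log2 fold change -0.11), beside 48% and 52% of all tested genes, and 14 were lower and 3 higher with separated arrays, beside 25.3% and 28.1% of all tested genes. With spike-in scaling the same list split into 11 lower and 15 higher, beside 2265 lower and 9391 higher of all 11656 tested genes. As reported, the changes of the brightest probes were small, from -0.56 to 0.50, and none reached a fold of 1.5. With spike-in scaling S100b reached it, at 0.69. Dimmer probes of S100b (0.65) and of Ntsr2 (-1.05, standard error 0.70), named after their values were seen, also did. That of Ntsr2 was well above background on 1 of 2 arrays in each group. By the brightest probes, 0 of 26 were past the thresholds in limma or in the methods' t-test. An unadjusted p under 0.05 in limma was reached by 7 lower and 1 higher, beside 8.73% and 7.43% of all tested genes.

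The 8 genes of this list with an unadjusted p under 0.05 were singled out after their values were seen. Among transporters and pumps, Slc7a10, a carrier of small neutral amino acids, differed by -0.56 on the log2 scale (standard error 0.12) and Atp1b2, the glial beta subunit of the sodium pump, by -0.32 (standard error 0.10). Mlc1, a membrane protein of astrocyte end-feet like Aqp4, was at -0.55 (standard error 0.18). The secreted proteins Mfge8, a bridge between phagocytes and dying cells, and Clu, an extracellular chaperone, were at -0.46 (standard error 0.099) and -0.36 (standard error 0.13). Nfia and Nfib, the nuclear factor I proteins that act in gliogenesis, were at -0.36 (standard error 0.10) and -0.35 (standard error 0.085) by their brightest probes. S100b, a calcium-binding protein made by astrocytes and by maturing oligodendrocytes, stood opposite, with signals of 2256 and 2524 in siNEG and of 3338 and 3415 in siGPR17 OPCs. The log2 difference was 0.50 (standard error 0.10), and a dimmer probe gave 0.65. Adjusted p-values of these 8 genes ranged from 0.211 to 0.290 in limma. The sizes of the 7 lower genes depended on the processing. With normexp Mlc1 was at -0.10, Nfia at -0.12 and Slc7a10 at -0.28, with spike-in scaling the 7 lay between -0.36 and -0.12, and Mlc1 was at -0.32 without siGPR17 replicate 1. The mean of the tested Nfib probes was -0.23.

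Of 16 genes that rise in reactive astrocytes, 10 were tested, and 5 (Steap4, Osmr, Serping1, Tm4sf1 and Aspg) stood well above background on no array. Of the 10, 7 were lower and 3 higher, beside 48% and 52% of all tested genes, and 5 of them were lower and 3 higher with separated arrays, beside 25.3% and 28.1%. Of the 10, 0 were past the thresholds in limma or by the methods' t-test, with 4 lower and 2 higher at an unadjusted p under 0.05 in limma, beside 8.73% and 7.43%. With spike-in scaling 4 were lower and 6 higher, beside 2265 lower and 9391 higher of all 11656 tested genes. Ptx3, a secreted pattern recognition protein, was the 1 gene with a fold of 1.5. Its signals were 20.1 and 14.5 in siNEG, where it was well above background on 1 of 2 arrays, and 27.1 and 30.5 in siGPR17 OPCs. These differ by 0.75 on the log2 scale (standard error 0.19, limma adjusted p = 0.234), and by 0.27 with normexp. Vim, the filament protein vimentin that astrocytes share with precursors, was at 0.30 (standard error 0.095), opposite in sign to Gfap. Cd44, a hyaluronan receptor, was at -0.33 (standard error 0.085) and Lcn2, a secreted protein that binds iron carriers, at -0.43 (standard error 0.14). Lcn2 was at -0.11 with normexp and at -0.28 without siGPR17 replicate 2, and with spike-in scaling Cd44 was at -0.13, Lcn2 at -0.24 and Vim at 0.49. Emp1 was at -0.42 (standard error 0.13) and Cp at -0.27 (standard error 0.091), and with spike-in scaling at -0.23 and -0.081. Vim, Cd44, Lcn2, Emp1 and Cp, which with Ptx3 had an unadjusted p under 0.05 in limma, were named after their values were seen.

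Marker lists of other cell types were read beside the astrocyte genes, with 48% of all tested genes lower, and no tested gene of these lists was past the thresholds in limma. All 8 tested neuronal markers were lower after silencing (median log2 fold change -0.23), with summed signals of 15478 to 16509 in siNEG and 12651 to 13316 in siGPR17 OPCs, and Slc17a7 and Neurod6 were not well above background on any array. All 8 OPC markers, Gpr17 among them, were lower, with a median of -0.19, as were 5 of 7 tested markers of mature oligodendrocytes, with a median of -0.23. The other 2 mature markers were higher with separated arrays, beside 28.1% of all tested genes. As reported, 6 of 8 OPC, 5 of 7 mature, 6 of 8 neuronal and 2 of 8 microglial markers were lower with separated arrays. The share of all tested genes separated in this direction was 25.3%. The 4 tested endothelial markers were separated higher, and none of the OPC, neuronal or microglial markers was. The summed signal of the mature list, most of it from a gene that was higher, was also higher. It was 326873 to 370823 in siNEG and 378102 to 390727 in siGPR17 OPCs. Of 8 tested microglial markers 7 were lower, with a median of -0.18, but their summed signals overlapped between the groups (2639 to 3927 in siNEG and 2645 to 3105 in siGPR17 OPCs), and Csf1r and Ptprc stood well above background on no array. With spike-in scaling 5 of 8 neuronal, 4 of 8 OPC, 4 of 7 mature oligodendrocyte and 4 of 8 microglial markers were lower, with medians from -0.036 to 0.018. Of all 11656 tested genes 2265 were lower under that scaling, and the median over all of them was 0.20. All 4 tested endothelial markers were higher under either scaling, with a median of 0.49 as reported and of 0.69 with spike-in scaling, and summed signals of 1075 to 1175 against 1558 to 1644, while Pecam1 and Cldn5 were not well above background. The summed signal of the 9 astrocyte genes, most of it from Slc1a3, was 9362 to 9857 in siNEG and 7955 to 7979 in siGPR17 OPCs. The medians of the neuronal, OPC and mature oligodendrocyte lists lay between -0.23 and -0.19, beside -0.22 for the 9 astrocyte genes, and the part of other cell types in the astrocyte values was not tested.

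**Figure D4:**
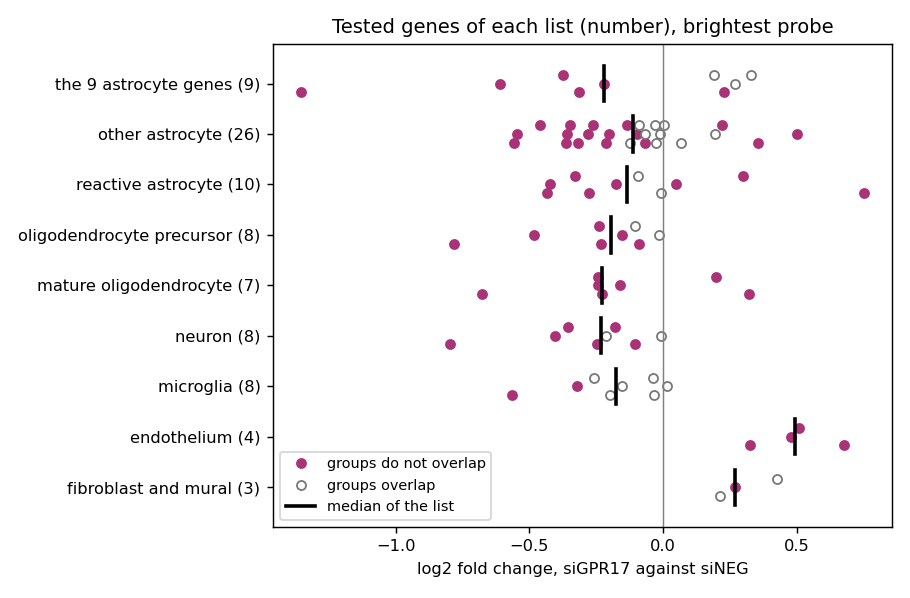
Log2 fold change of siGPR17 against siNEG OPCs (x axis) of each tested gene by its brightest probe, for the 9 astrocyte genes and the other lists (y axis, number of tested genes in brackets). Filled points are genes whose groups do not overlap, open points those that overlap, and bars the median of each list, which is -0.22 for the 9 astrocyte genes, -0.11 for the wider astrocyte list and 0.49 for the endothelial list.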

How the data were processed

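Arrays of 2 siNEG and 2 siGPR17 samples were analysed, grouped by their GEO titles. The authors deposited intensities from Feature Extraction 10.7.3.1, per the file headers: a processed intensity, background-subtracted and detrended over the slide, and uncorrected spot and background medians, with no normalization between arrays. The design text calls the samples independent, and p-values measure only the spread between them.

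Here the deposited processed intensities were taken as log2, spots with an outlier flag were left out, spots of a probe were averaged, and the 75th percentile of each array over non-control probes, between 564.9 and 624.1, was subtracted. Of 45598 non-control probes, 45565 had a value on all arrays, and no spot of them was saturated. Probes were named by matching transcript accessions without versions to RefSeq genes of GRCr8, which gave a symbol to 21093 of them. The array design names an older rat build, so no probe coordinates are given. Groups were compared with limma 3.58.1 (lmFit, eBayes) under R 4.3.3 without a block, and intervals used its moderated errors with 4.15 degrees of freedom. The study's methods name thresholds for the arrays and no test, and their general statistics section names the t-test that is called the methods' t-test here.

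The members, lists and tests were chosen with earlier results of these data known. The rule for names was all 9 members, Gpr17, and genes of the wider and reactive astrocyte lists past the thresholds or with a fold of 1.5 and separated arrays, and exceptions are marked. A list of fibroblast and mural genes (3 of 8 tested, all 3 higher, median 0.27) was read as well. Code was tested on simulated data. Alternatives were normexp with an offset of 50 on the spot median, since no spot mean was used here, quantile normalization, other scalings, filters and floors, a trended, robust limma fit, the methods' t-test, a replicate block and each array left out.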

Additional observations from a re-analysis of the deposited data

How the results depend on the processing

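The count of all probes past the thresholds, 1 as reported, was 420 with the trend and robust options and 242 with normexp, unchanged with quantile normalization and scaling on the median, and 0 with spike-in scaling, no filter, a filter on all 4 arrays, a floor, the methods' t-test, the replicate block and each array left out (0 to 0). The count of astrocyte genes past them was 2 with the trend and robust options, 1 with normexp and 0 in the other alternatives. Their median log2 fold change was -0.057 with normexp, -0.026 with spike-in scaling, 0.071 with the mean of all tested probes of a gene, which turns its sign, and -0.30 to -0.14 with an array left out. With an array left out the sign changed for Gja1 (-0.016 to 0.68, lowest without siNEG replicate 1), Sox9 (-0.18 to 0.56, lowest without siNEG replicate 2) and Aldh1l1 (-0.041 to 0.58, lowest without siGPR17 replicate 2), and that of Slc4a4 changed with the mean of its probes (0.11). The causes were not tested. Replicate numbers do not pair the samples by the labels, and deviations of same-numbered arrays correlated at -0.065 across tested probes. With the replicate block the count of probes fell to 0 of 28016, with adjusted p of 0.390 for Aqp4 and 0.398 for Gfap from limma. The adjusted p of Aqp4 ranged from 0.0173 to 0.665 and that of Gfap from 0.0616 to 0.687 over the alternatives. The dimmer probe of Slc4a4, well above background on 1 of 2 arrays in each group, is limited by its signal.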
